A study of Mus musculus with 58 samples.

Results

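The genes described here serve the fat cell and the synthesis and storage of triglyceride. The list holds 33 genes, and all probe sets annotated to their symbols were taken. Of the 33 genes, 30 had such a probe set, with 55 probe sets among them, out of 18193 genes and 45037 probe sets in the series. Adrb3, Cfd and Plin1 had no such probe set in the supplied annotation and were not analysed here. Whether other probe sets of the arrays measure them was not examined. Lep, the gene of the satiety hormone leptin, lay under the filter on dim probe sets in each of the 3 experiments. The other 29 genes were tested in every experiment.

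The study profiled RNA of quadriceps muscle, a thigh muscle, from 34 male mice on 58 Affymetrix arrays. Experiment 1 compared 6 FVB wild-type mice with 6 mice of line 20b and 6 of line 41, all 6 months old. Lines 20b and 41 are separate transgenic lines that carry the CUGexp transgene, which makes an RNA with an expanded CUG repeat in skeletal muscle, as in myotonic dystrophy. Experiment 2 compared 3 Clcn1-null mice on the BALB background, which lack the muscle chloride channel, with 3 BALB wild-type mice, all 3 months old. Experiment 3 compared 5 Mbnl1-null mice on the FVB background, which lack a splicing regulator, with 5 FVB wild-type mice, all 3 months old. Every genetic change was constitutive, and no mouse was treated. The promoter of the transgene is not given in the sources used here. Experiments 1 and 2 used the array pair 430A and 430B, and experiment 3 used the 430 2.0 array.

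White fat cells store triglyceride in a droplet coated by perilipin and CIDE proteins, release it through lipases, and secrete hormones such as adiponectin. The nuclear receptor PPAR-gamma and the factor C/EBP-alpha establish and keep this programme, while SREBP-1 and ChREBP switch on the enzymes that make fatty acids from sugar. Muscle fibres carry out some of these steps themselves, and fat cells also lie between and around the fibres of a dissected muscle. In RNA from whole muscle, fewer fat cells and less RNA per fat cell cannot be told apart.

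Values below are log2 intensities of the brightest probe set of each gene, by its mean over the 3 experiments. A change is the difference of the group means on that scale. Changes were tested with limma, a gene was called at a Benjamini-Hochberg adjusted p under 0.05 over all genes tested in the experiment, and every adjusted p below comes from that fit unless stated. Levels are compared only within a probe set and an experiment. Each p-value sets a difference of means against the spread between mice as limma estimates it, and the number of mice limits the precision.

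Of the probe sets on an array, 35.7% to 72.3% reached an intensity of 32, depending on the array type. The tissue label was borne out by the fast fibre markers, whose mean lay between 15.41 and 16.32 in every mouse. The Clcn1 probe set lay between 9.30 and 9.54 in Clcn1-null mice, below the 10.25 to 11.27 of their wild types. In Mbnl1-null mice the Mbnl1 probe set lay between 12.90 and 13.20, below the 13.76 to 13.88 of their wild types. Whether these probe sets lie inside the deleted sequence is not known, so the remaining signal checks nothing.

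Wild-type mice 1 and 2 of experiment 1 stood apart in these genes. Both lay above the other 4 wild-type mice in 23 of the 29 genes (79.3%), against 11.5% of all 12955 genes tested. The exceptions were Acly, Aqp7, Elovl6, Me1, Mlxipl and Ucp1. Adipoq, which encodes the fat cell hormone adiponectin, read 13.43 and 13.96 in these mice and 11.02 to 11.77 in the other 4. Pck1, the enzyme that supplies glycerol for triglyceride in fat, read 13.25 and 13.82 against 8.85 to 11.00. Even Lep, otherwise dim, read 7.51 and 7.67 there and 2.96 to 4.33 in the others. Fat cell markers outside the list moved with them: 14 of 15 were highest in both mice, with a median difference of 2.16. Slow muscle fibre markers moved the other way, and 8 of 9 were lowest in both mice, with a median difference of -3.35. Fast fibre markers differed by a median of 0.01. The part of these differences between mice in the results below was not tested, and each gene called lower in line 20b, with the counts of calls in line 20b, is given with and without both mice.

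**Figure D1:**
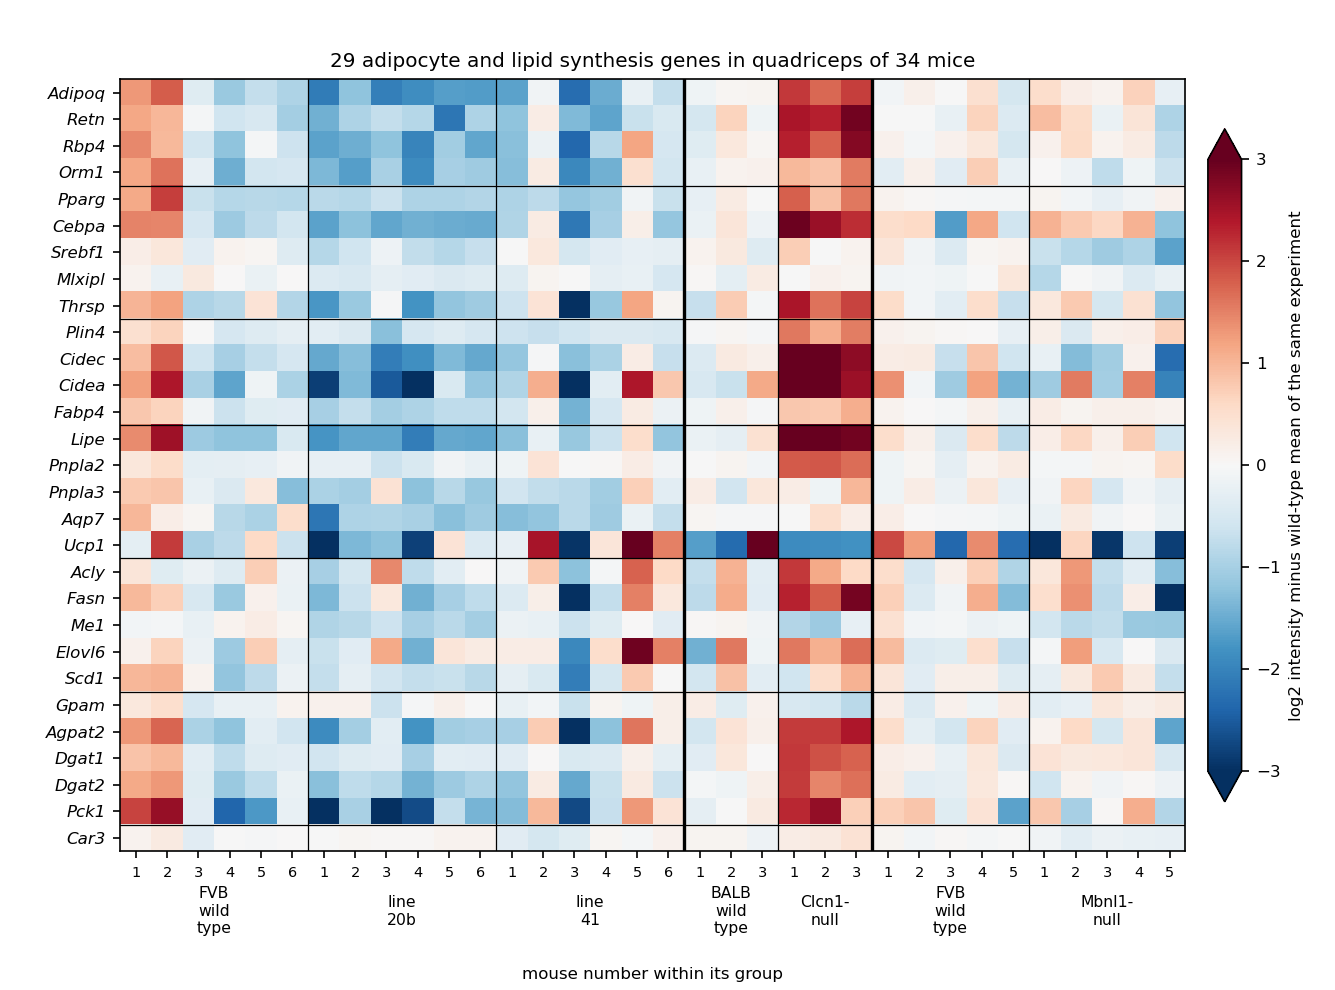
Log2 value of each of the 29 genes in each of the 34 mice, minus the mean of the wild-type mice of its own experiment, with genes in the order of their roles and mice in their groups. Colour runs from 3 log2 units below to 3 above that mean. Wild-type mice 1 and 2 of experiment 1 stand out as high in most genes, line 20b is low in most, the Clcn1-null mice are high, and the Mbnl1-null mice are mixed.

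The spread within most groups was wide for these genes. The median SD of a gene among the wild-type mice of experiment 1 was 0.89, against 0.18 over all genes, and 24 of the 29 genes spanned more than 1 log2 unit there, against 12% of all genes. Line 41 had a median SD of 0.70 against 0.18 over all genes, and line 20b 0.32 against 0.15. In line 41, mouse 5 was highest in 21 of the 29 genes, as it was in 8.48% of all genes, and mouse 3 lowest in 21, as it was in 21.1% of all genes. The groups of experiments 2 and 3 had median SDs of 0.34 to 0.43 for these genes, against 0.14 to 0.28 over all genes. Clcn1-null mice came nearest to all genes, at 0.37 against 0.28. In that group 7 of the 29 genes spanned more than 1 log2 unit, close to the 22.1% of all genes. By median SD, line 20b was the narrowest of the 7 groups for these genes, and the wild-type mice it was compared with were the widest.

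The upstream sequence of some of these genes shows what regulators of the fat programme could read, so the 250 bases before the start site were searched on both strands, with sequences from RefSeq on build GRCm38.p6. An entry was found for 25 of the 33 genes. The C/EBP motif TTGCNNAA occurred in 5 of the 25 (Cidec, Lep, Plin1, Pparg and Rbp4), against 10.8% of the 27025 genes with an entry. The E-box CACGTG occurred in Lipe and Mlxipl (6.86% of all genes). The nuclear receptor half-site AGGTCA occurred in 6 (Acly, Aqp7, Elovl6, Gpam, Pparg and Ucp1; 15.8% of all genes). The sterol element TCACNCCAC occurred in Mlxipl alone (1.22% of all genes). These matches describe letters in the window and are not measured binding sites. Capitals mark the matches in the sequences below, none of which overlap. Pparg, Cidec and Rbp4 are shown for the C/EBP motif, Lipe and Mlxipl for the E-box and the sterol element, and Adipoq as the leading fat cell gene of the results, in which no motif was found. Pparg is at chr6:115421816-115422065 on the plus strand, with matches that begin 215 and 16 bases before the start. Cidec is at chr6:113434765-113435014 and Rbp4 at chr19:38124812-38125061, both on the minus strand, with matches at 198 and 128 bases. Lipe is at chr7:25395988-25396237 on the minus strand, with its match at 155 bases. The first Mlxipl start is at chr5:135089640-135089889 and its second at chr5:135106641-135106890, both on the plus strand, with matches at 98 and 136 bases. Adipoq is at chr16:23146286-23146535 on the plus strand.
Pparg: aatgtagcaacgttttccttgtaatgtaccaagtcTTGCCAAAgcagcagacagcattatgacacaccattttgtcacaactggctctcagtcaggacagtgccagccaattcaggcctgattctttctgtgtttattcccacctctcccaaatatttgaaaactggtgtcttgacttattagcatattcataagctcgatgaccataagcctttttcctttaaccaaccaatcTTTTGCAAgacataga
Cidec: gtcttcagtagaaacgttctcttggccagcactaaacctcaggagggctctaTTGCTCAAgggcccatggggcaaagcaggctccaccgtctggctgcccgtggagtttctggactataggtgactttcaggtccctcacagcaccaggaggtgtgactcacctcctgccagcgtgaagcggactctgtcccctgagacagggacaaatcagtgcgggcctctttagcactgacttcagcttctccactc
Rbp4: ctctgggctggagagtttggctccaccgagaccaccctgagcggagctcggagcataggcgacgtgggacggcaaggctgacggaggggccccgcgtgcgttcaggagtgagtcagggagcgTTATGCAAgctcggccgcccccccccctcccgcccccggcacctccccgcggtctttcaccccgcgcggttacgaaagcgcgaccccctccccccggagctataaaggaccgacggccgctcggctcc
Lipe: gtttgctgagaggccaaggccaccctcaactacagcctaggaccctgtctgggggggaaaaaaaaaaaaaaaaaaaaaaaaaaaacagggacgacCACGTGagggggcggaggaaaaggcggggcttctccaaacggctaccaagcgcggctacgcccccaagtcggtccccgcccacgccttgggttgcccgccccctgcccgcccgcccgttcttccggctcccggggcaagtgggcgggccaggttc
Mlxipl, first start: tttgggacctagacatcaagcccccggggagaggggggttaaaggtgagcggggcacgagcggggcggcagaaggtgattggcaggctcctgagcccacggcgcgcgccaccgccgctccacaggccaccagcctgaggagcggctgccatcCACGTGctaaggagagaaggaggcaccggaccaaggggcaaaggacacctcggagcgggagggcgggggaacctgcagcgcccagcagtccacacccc
Mlxipl, second start: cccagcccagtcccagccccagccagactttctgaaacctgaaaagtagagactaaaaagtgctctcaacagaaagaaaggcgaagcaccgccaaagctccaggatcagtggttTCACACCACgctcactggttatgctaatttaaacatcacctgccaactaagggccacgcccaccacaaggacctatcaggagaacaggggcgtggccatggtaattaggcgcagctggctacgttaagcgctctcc
Adipoq: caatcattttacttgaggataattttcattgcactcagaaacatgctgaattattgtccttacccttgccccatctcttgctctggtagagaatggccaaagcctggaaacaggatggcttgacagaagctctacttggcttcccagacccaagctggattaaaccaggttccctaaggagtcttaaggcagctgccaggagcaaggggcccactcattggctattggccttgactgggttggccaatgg

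Line 20b against wild type asks what the expanded CUG RNA of this line goes with in muscle. Fat cell hormones, droplet proteins, a lipase and both lipogenic factors were lower in line 20b, and no gene of the list was higher. Of the 29 genes, 12 were lower (41.4%), where 10.7% of all genes tested were lower and 9.09% higher. The median change of the 29 genes was -0.86, against -0.01 over all genes, and 28 of the 29 changes were below 0. In 7 genes the line 20b mice all lay below all wild-type mice (Adipoq, Cebpa, Mlxipl, Cidec, Fabp4, Lipe and Me1), which held for 5.5% of all genes. Without wild-type mice 1 and 2, 4 of the 29 genes were lower (Cidec, Me1, Mlxipl and Srebf1), where 8.03% of all genes were lower, and the median change was -0.49. Without wild-type mouse 1 alone, or mouse 2 alone, 6 genes were lower, where 1128 and 1273 of all 12955 genes were lower.

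Among secreted proteins, 3 of 4 tested genes were lower in line 20b. Adipoq read 11.02, 11.59 and 13.96 (lowest, median and highest, n = 6) in wild type and 10.05, 10.37 and 10.94 in line 20b (n = 6). The groups did not overlap, with the highest line 20b mouse just under the lowest wild-type mouse. The change was -1.75 (SE 0.47, 3.37-fold lower, adjusted p = 0.013), and -0.97 (adjusted p = 0.0691) without wild-type mice 1 and 2. Retn, the gene of the hormone resistin, read 10.16, 10.92 and 12.35 in wild type and 9.02, 10.26 and 10.47 in line 20b. These groups overlapped, and the change was -1.17 (SE 0.38, adjusted p = 0.0364), or -0.63 (adjusted p = 0.237) without both mice. Rbp4, which carries retinol in plasma, read 8.52, 9.43 and 11.18 in wild type and 7.76, 8.22 and 8.68 in line 20b. Its groups overlapped slightly, and its change was -1.47 (SE 0.49, adjusted p = 0.0394), or -0.87 (adjusted p = 0.242) without both mice. Orm1, an acute-phase plasma glycoprotein that fat also makes, was not called (-1.32, adjusted p = 0.0602).

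Among the regulators, Srebf1, Mlxipl and Cebpa were lower and Pparg and Thrsp were not called. Srebf1 encodes SREBP-1, a driver of fatty acid synthesis genes. It read 11.78, 12.24 and 12.51 in wild type and 11.30, 11.45 and 12.01 in line 20b. The change was small and the groups overlapped (-0.65, SE 0.16, adjusted p = 0.00585), and it was -0.51 (adjusted p = 0.0464) without wild-type mice 1 and 2. Mlxipl, the gene of the sugar-sensing factor ChREBP whose starts are shown above, read 11.96, 12.21 and 12.49 in wild type and 11.72, 11.79 and 11.93 in line 20b. The groups did not overlap (-0.39, SE 0.10, adjusted p = 0.0094), and without both mice the change was -0.42 (adjusted p = 0.0144). Cebpa, the gene of C/EBP-alpha, read 9.69, 10.26 and 12.28 in wild type and 9.18, 9.29 and 9.56 in line 20b. The groups did not overlap (-1.48, SE 0.45, adjusted p = 0.0262), and the call was lost without wild-type mice 1 and 2 (-0.74, SE 0.34, adjusted p = 0.163). Pparg, the master factor of fat cell differentiation, read 11.34 and 12.29 in wild-type mice 1 and 2, 9.35 to 9.55 in the other wild-type mice and 9.28 to 9.57 in line 20b. Apart from those mice, Pparg thus lay in the same range in both groups (change with all mice -0.84, adjusted p = 0.174). Thrsp, a small regulator of lipid synthesis enzymes, changed by -1.15 without being called.

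Of the genes of droplet proteins and fatty acid binding, 3 of 4 were lower. Cidec, which promotes droplet fusion, read 10.57, 11.03 and 13.45 in wild type and 9.50, 10.04 and 10.31 in line 20b, with no overlap. Its change was -1.59 (SE 0.41, 3.02-fold lower, adjusted p = 0.00892), and -0.89 (SE 0.26, adjusted p = 0.0251) without wild-type mice 1 and 2. The fall in Cidec therefore passed the test with or without those mice, at a smaller size. Fabp4, the fatty acid carrier of fat cells and capillaries, read 14.68, 15.11 and 16.13 in wild type and 14.31, 14.48 and 14.62 in line 20b. Its groups did not overlap (-0.86, SE 0.26, adjusted p = 0.0261), and the call was lost without both mice (-0.49, adjusted p = 0.177). Plin4, a perilipin that coats droplets, read 13.27, 13.63 and 14.42 in wild type and 12.51, 13.28 and 13.43 in line 20b. Its groups overlapped and its change was modest (-0.57, SE 0.18, adjusted p = 0.0349), or -0.28 (adjusted p = 0.222) without both mice. Cidea, a relative of Cidec with high levels in brown fat, read 9.81, 10.86 and 13.82 in wild type and 7.30, 9.48 and 10.94 in line 20b and was not called (-2.06, adjusted p = 0.127).

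Genes that release or burn stored fat were lower in part. Lipe, the gene of hormone-sensitive lipase, read 9.04, 9.49 and 12.80 in wild type and 8.19, 8.70 and 8.71 in line 20b. The groups did not overlap (-1.68, SE 0.54, 3.2-fold lower, adjusted p = 0.0339), but the change was -0.69 (adjusted p = 0.121) without wild-type mice 1 and 2. A second, dimmer Lipe probe set was not lower, with means of 6.92 in line 20b and 6.80 in wild type. Aqp7, the channel through which glycerol leaves fat cells, read 7.87, 8.96 and 9.82 in wild type and 6.65, 7.80 and 7.92 in line 20b. Only the edges of these groups overlapped (-1.22, SE 0.30, adjusted p = 0.00794), and without both mice the adjusted p was 0.0522 at a change of -0.92. Pnpla2, the first lipase of triglyceride breakdown, and its relative Pnpla3 were not called (-0.32 and -0.79). Ucp1, the heat-making protein of brown fat, ranged from 8.49 to 11.56 in wild type, from 5.47 to 9.88 in line 20b and from 6.52 to 12.82 in line 41, and was not called (-1.56 in line 20b, adjusted p = 0.266).

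Of the synthesis genes, Me1 was lower in line 20b and the other 9 were not called. Me1 encodes malic enzyme, which makes NADPH for fatty acid synthesis. It read 13.58, 13.80 and 14.01 in wild type and 12.79, 12.94 and 13.18 in line 20b. The groups lay well apart and both were narrow, so Me1 had the smallest adjusted p of the list (-0.86, SE 0.10, 1.82-fold lower, adjusted p = 3.94e-06). Wild-type mice 1 and 2 did not stand apart in Me1, at 13.73 and 13.74, and without them the change was -0.90 (adjusted p = 3.85e-05). A second Me1 probe set changed by -0.91. The fatty acid synthase gene Fasn (-0.81), the desaturase gene Scd1 (-0.62), the citrate lyase gene Acly (-0.19) and the elongase gene Elovl6 (-0.11) were not called. The same held for the acyltransferase genes of triglyceride synthesis, Gpam (-0.05), Agpat2 (-1.18), Dgat1 (-0.49) and Dgat2 (-1.05, adjusted p = 0.0639). Pck1 read 8.85, 10.95 and 13.82 in wild type and 7.35, 9.17 and 10.51 in line 20b. This change of -2.13 was the largest of the list in size but had an adjusted p of 0.092, while a second Pck1 probe set was lower when every probe set was tested (-1.98, adjusted p = 0.0397). Car3, a carbonic anhydrase abundant in fat and in slow fibres, changed by 0.06.

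**Figure D2:**
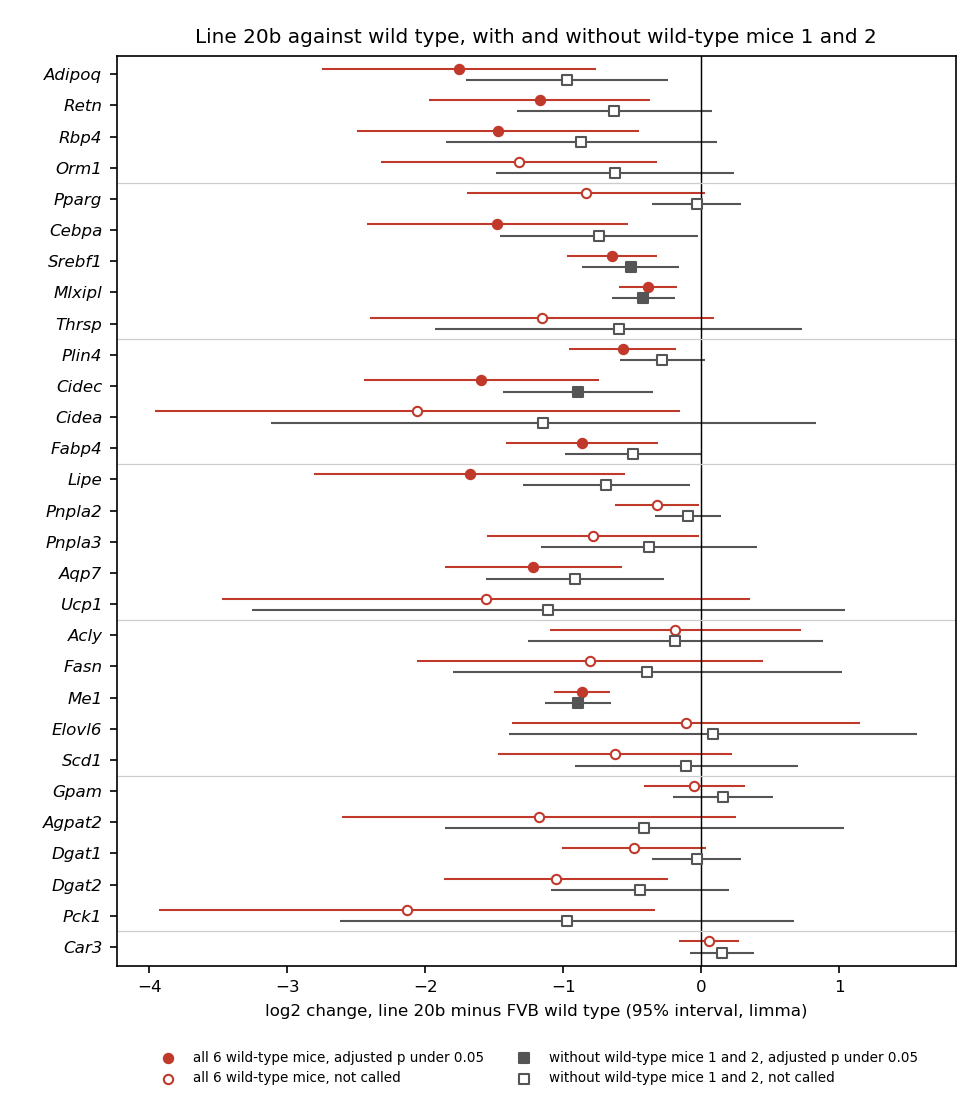
Log2 change of each of the 29 genes in line 20b against FVB wild type, with its 95% confidence interval, from the fit with all mice and from the fit without wild-type mice 1 and 2. Filled points have an adjusted p under 0.05. The changes of Me1 (-0.86 and -0.90) and Mlxipl (-0.39 and -0.42) hardly move between the fits, whereas those of Lipe (-1.68 and -0.69) and Cebpa (-1.48 and -0.74) shrink.

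Single mice of either group also bore on some calls in line 20b. Cidec, Me1, Mlxipl and Srebf1 remained lower under every one of the 28 alternatives tried, and Adipoq and Aqp7 without any single mouse. The call of Cebpa was lost without wild-type mouse 1 or 2. That of Fabp4 was lost without either of these or line 20b mouse 1. That of Retn was lost without wild-type mouse 1, 2 or 3 or line 20b mouse 1 or 5. Plin4 lost its call without wild-type mouse 1, 2 or 3 or line 20b mouse 3, 4 or 6. Lipe lost its call without wild-type mouse 1 or 2 or any line 20b mouse but mouse 3, and Rbp4 without wild-type mouse 1, 2 or 5 or any line 20b mouse but mouse 5. With a single mouse left out, the change of Lipe ran from -1.92 to -1.17 and that of Rbp4 from -1.72 to -1.18.

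Other genes of the same pathways were changed in line 20b in both directions. Of 14 other genes of fatty acid synthesis and elongation, 3 were lower and 1 higher: the acyl-CoA synthetase gene Acsl3 (-1.53), the elongase gene Elovl5 (-0.94), the desaturase gene Fads1 (-0.93) and Mid1ip1, a partner of acetyl-CoA carboxylase (0.49). Of 8 other glycerolipid genes, 3 were lower (Gpat3, -1.01; Lpin1, -0.93; Gpd1, -0.75) and 0 higher. Of 11 other droplet and lipolysis genes, 3 were lower, namely the perilipins Plin5 (-1.16) and Plin3 (-0.43) and the monoglyceride lipase Mgll (-1.08), and 2 were higher, the droplet assembly genes Fitm1 (0.53) and Fitm2 (0.25). Of 14 other regulators of fat cell formation, Klf5 was higher (1.46) and Ebf1 lower (-0.70). Without wild-type mice 1 and 2, these 4 lists had 2 lower and 1 higher gene of 14, 2 lower and 0 higher of 8, 2 lower and 2 higher of 11, and 0 lower and 2 higher of 14. Fat cell markers outside the list were lower in 6 of 15, led by Acvr1c (-1.84) and Cyp2e1 (-1.62), and in 2 of 15 without wild-type mice 1 and 2. The mean of these markers was 9.09 to 9.54 in line 20b and 9.64 to 12.23 in wild type. Endothelial and mural markers were lower in 8 of 15 as well, with means of 10.36 to 10.79 against 10.89 to 11.26, and without both mice 5 of 15 were lower and 1 higher. Schwann cell markers were lower in 3 of 4. Of 8 genes listed as brown fat markers, Prdm16 was lower (-1.27) and Cox7a1 higher (0.14). Which cells of the whole muscle these transcripts came from was not tested. Without both mice 1 of the 4 Schwann cell markers was lower, and of the brown fat markers 0 were lower and 0 higher. Slow fibre markers were higher in 1 of 9, with a median change of 0.30. Without both mice 1 was higher and 1 lower, and the median change was -0.78. The part of all these markers in the changes of the listed genes was not tested.

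Line 41 was compared with the same 6 wild-type mice, so its changes and those of line 20b are not independent. No gene of the list was called in line 41, where 5.53% of all genes tested were lower and 3.94% higher. By limma, 6 genes had an unadjusted p under 0.05, all of them lower (Adipoq, Retn, Mlxipl, Plin4, Aqp7 and Me1), where 14.1% of all genes were lower and 9.02% higher at that threshold. The median change was -0.43 with all mice and 0.01 without wild-type mice 1 and 2. Me1 came nearest to the threshold. It read 13.16, 13.52 and 13.80 in line 41, lay between line 20b and wild type, and overlapped wild type (-0.29, SE 0.10, adjusted p = 0.0634). Plin4 (-0.54, adjusted p = 0.0725) and Aqp7 (-0.88, adjusted p = 0.0789) followed. Adipoq read 9.85, 11.03 and 12.03 in line 41, which spans the line 20b range and the lower part of the wild-type range. Its change of -1.07 (adjusted p = 0.179) has a 95% interval of -2.06 to -0.08, which includes the estimate of line 20b. Quantile normalisation gave 1 call, Me1. When every probe set was tested, 2 genes were called lower through dimmer probe sets. For Fabp4 these were 1 at -1.31 (adjusted p = 0.0293) and 1 that all line 41 mice had under the floor of log2 5 (adjusted p = 0.0113). For Car3 it was 1 at -1.22 (adjusted p = 0.0432). Leaving out 1 mouse gave 0 to 2 calls, the 2 without wild-type mouse 4. A single call was made without line 20b mouse 3, whose removal changes only the shared variance estimate, without line 41 mouse 5, or without wild-type mouse 3 or 5. Among other pathway genes, Klf5 (0.90), Fitm1 (0.54) and the acyltransferase gene Agpat1 (0.50) were higher, and Abhd5, which activates the lipase of Pnpla2, was lower (-0.29). Fat cell markers outside the list were lower in 2 of 15 (Sfrp5, -0.55, and the lipoprotein lipase gene Lpl, -0.36), and in 0 of 15 without wild-type mice 1 and 2. Endothelial and mural markers were lower in 7 of 15, and in 5 of 15 without those mice. Their median change with all mice was -0.41, as in line 20b. Schwann cell markers were lower in 2 of 4, and in 0 of 4 without those mice, and 1 of 8 macrophage and leukocyte markers was higher in either fit. Of 9 slow fibre markers 0 were called in either fit, with a median change of 0.78 with all mice and -0.23 without those mice. The part of all these markers in the changes of the listed genes was not tested.

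The direct comparison of the lines called 1 gene, Me1, lower in line 20b than in line 41 (-0.57, SE 0.10, adjusted p = 0.00221). Of all genes, 2.36% were lower and 3.5% higher in this comparison. The highest line 20b mouse, at 13.18 in Me1, lay just above the lowest line 41 mouse, at 13.16. When every probe set was tested, a second Me1 probe set differed by -0.75 (adjusted p = 0.000161), and Aqp7 was called lower at a probe set that all line 20b mice had under the floor of 5 (adjusted p = 0.0105). In Cidec and Lipe the lines did not overlap, which held for 1.47% of all genes, but neither was called (-0.95, adjusted p = 0.207, and -1.02, adjusted p = 0.329). Cidec read 10.33, 10.75 and 11.80 in line 41, and Lipe 9.00, 9.36 and 10.77. Leaving wild-type mice 1 and 2 out of the fit, which changes only the shared variance estimate here, gave 4 calls: Me1, Cidec (adjusted p = 0.0224), Lipe (adjusted p = 0.0269) and Pnpla2 (-0.39, adjusted p = 0.0299). In that fit 2.45% of all genes were lower and 3.64% higher. Both mice were picked because they stood apart in most of the listed genes, so a smaller variance was built in. The calls added in that fit therefore lend no support to a difference between the lines. A second gene was called without line 20b mouse 3 or without line 41 mouse 3. Of the other pathway genes, Acsl3 (-1.41, 1 of 14 of its list) and the glycerolipid genes Gpd1 (-0.70), Agpat1 (-0.64) and Lpin1 (-0.62; 3 of 8) were lower in line 20b too.

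**Figure D3:**
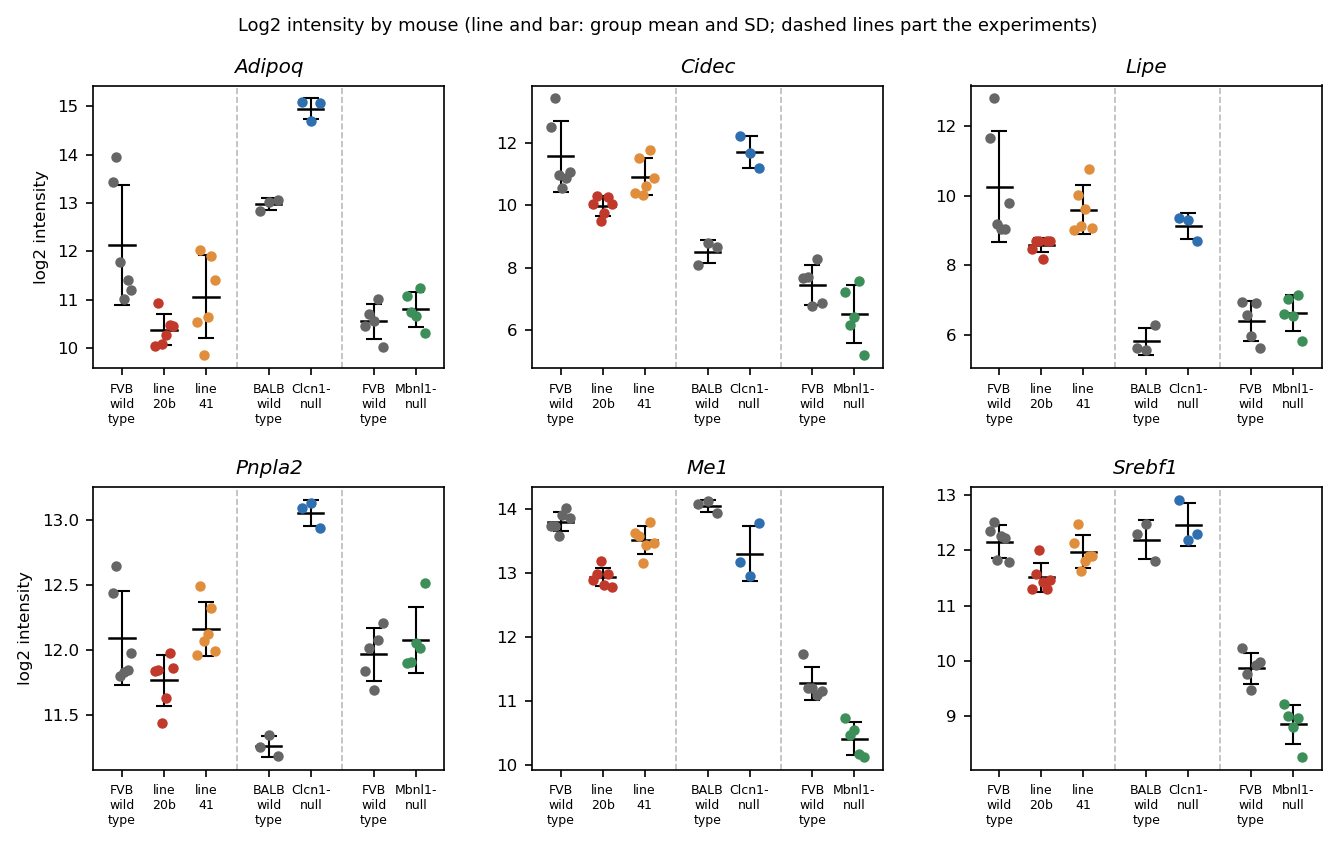
Log2 intensity of Adipoq, Cidec, Lipe, Pnpla2, Me1 and Srebf1 in each mouse of the 7 groups, with the mean and SD of each group. Levels can be compared within an experiment only. Me1 in line 20b (12.79 to 13.18) lies below wild type (13.58 to 14.01), and Lipe in Clcn1-null mice (8.69 to 9.37) lies above BALB wild type (5.54 to 6.26).

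Clcn1-null against BALB wild type asks how muscle without its chloride channel differs. Here the genes of the fat cell were higher: fat cell hormones, droplet proteins, lipases and the last steps of triglyceride synthesis. The 5 listed fatty acid synthesis genes and the lipogenic factors Srebf1 and Mlxipl were not called. Those 5 synthesis genes still had a median change of 1.29, with 1 of them below 0, and 3 of 14 other synthesis genes were higher. Of the 29 genes, 16 were higher and 0 lower, where 2.2% of all 13244 genes tested were higher and 3.2% lower. The median change was 1.43, against 0.02 over all genes. Of the 16 called genes, 15 were at least 2-fold higher. The share of all called genes at that size was not computed, so this count has no background to be set against. In 19 genes all Clcn1-null mice lay above all wild-type mice, which held for 14.3% of all genes, and in Me1 and Gpam all lay below, which held for 16.7%. With 3 mice a group, some calls rested on single mice. Adipoq, Lipe and Pnpla2 were higher under every one of the 15 alternatives tried. The count fell to 3, these same genes, without BALB wild-type mouse 3, and to 7 without BALB wild-type mouse 1. Calls fell over all genes too, from 291 higher genes to 35 and 46 in these fits, and rose to 769 without Clcn1-null mouse 3. Without BALB wild-type mouse 3, Cebpa changed by 2.50 (adjusted p = 0.0518) and Cidec by 3.27 (adjusted p = 0.0503). Dgat1 changed by 1.93 (adjusted p = 0.0608) and Agpat2 by 2.28 (adjusted p = 0.0657), so sizes were kept where calls were lost.

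All 4 tested genes of secreted proteins were higher in the Clcn1-null mice. Adipoq read 12.85, 13.03 and 13.07 in the 3 wild-type mice and 15.09, 14.71 and 15.06 in the 3 Clcn1-null mice. The groups lay far apart relative to their spread (1.97, SE 0.15, 3.93-fold, adjusted p = 0.00375). Retn read 10.59, 11.79 and 10.99 in wild type and 13.56, 13.46 and 14.02 in Clcn1-null mice (2.56, SE 0.34, 5.88-fold, adjusted p = 0.0143). Rbp4 read 8.45, 9.13 and 8.88 and then 11.15, 10.59 and 11.58 (2.29, SE 0.30, 4.89-fold, adjusted p = 0.0143). Neither gene overlapped between the groups. Orm1 rose least of these, from 10.81, 11.14 and 11.16 to 12.00, 11.90 and 12.59 (1.13, SE 0.22, adjusted p = 0.0449), and its call was lost without any mouse but Clcn1-null mouse 3. Retn lost its call without BALB wild-type mouse 1 or 3 or Clcn1-null mouse 2, and Rbp4 without either of these wild-type mice or Clcn1-null mouse 1. Lep stayed under the filter.

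Of the regulators, the fat cell factors were higher. Pparg read 10.18, 10.65 and 10.42 in wild type and 12.21, 11.28 and 12.00 in Clcn1-null mice. All Clcn1-null mice were above all wild-type mice (1.42, SE 0.27, 2.67-fold, adjusted p = 0.0419), but the call was lost without any mouse but Clcn1-null mouse 2. Cebpa read 8.08, 8.66 and 8.13 and then 11.23, 10.89 and 10.50 (2.58, SE 0.25, 5.99-fold, adjusted p = 0.00676). Thrsp read 10.47, 11.91 and 11.09 and then 13.61, 12.79 and 13.19 (2.04, SE 0.40, 4.12-fold, adjusted p = 0.0446), with the call lost without any mouse but BALB wild-type mouse 2. Srebf1 (0.28, adjusted p = 0.581) and Mlxipl (0.07, adjusted p = 0.833), which were lower in line 20b, were not called here.

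All 4 tested genes of droplet proteins and fatty acid binding were higher. Cidec, whose upstream sequence holds a C/EBP match, read 8.10, 8.78 and 8.67 in wild type and 12.24, 11.70 and 11.20 in Clcn1-null mice (3.20, SE 0.32, 9.19-fold, adjusted p = 0.00691). Cidea read 6.97, 6.77 and 8.59 and then 11.76, 11.22 and 10.0015. This was the largest fold of the list, with the third mouse of each group nearest the other group (3.55, SE 0.64, 11.7-fold, adjusted p = 0.0346). The call of Cidea was lost without any mouse but Clcn1-null mouse 3. Plin4 read 11.99, 12.09 and 11.99 and then 13.60, 13.11 and 13.56 (1.40, SE 0.16, 2.63-fold, adjusted p = 0.0103), with the call lost without BALB wild-type mouse 1 or 3. Fabp4 was already bright, at 15.02, 15.31 and 15.11, and read 15.95, 15.92 and 16.23 in Clcn1-null mice (0.89, SE 0.13, 1.85-fold, adjusted p = 0.0195). Its call was lost without BALB wild-type mouse 1 or 3 or Clcn1-null mouse 2. Another Fabp4 probe set differed less, with means of 15.48 in wild type and 15.89 in Clcn1-null mice. A further one had means of 11.17 and 12.07, and the last lay under the floor of 5 in every mouse but Clcn1-null mouse 2.

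Both lipases of triglyceride breakdown were higher. Lipe was dim in BALB wild type, at 5.60, 5.54 and 6.26, and read 9.37, 9.30 and 8.69 in Clcn1-null mice (3.32, SE 0.27, 9.97-fold, adjusted p = 0.00472). Pnpla2 read 11.25, 11.34 and 11.18 and then 13.09, 13.13 and 12.93, with little spread in either group (1.79, SE 0.12, 3.47-fold, adjusted p = 0.00299). The second probe sets of both genes, whose group means lay between 5.65 and 5.95, were not called (-0.17 for Lipe and 0.18 for Pnpla2). Pnpla3 (0.37) and Aqp7 (0.23) were not called. Ucp1 read 6.33, 5.68 and 11.94 in wild type and 6.09, 6.12 and 6.18 in Clcn1-null mice. A single wild-type mouse, mouse 3, thus had high Ucp1 (change -1.85, adjusted p = 0.541), and it was also the wild-type mouse with the highest Cidea.

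In triglyceride synthesis, Agpat2, Dgat1 and Dgat2 were higher, and in fatty acid synthesis 0 of 5 genes were called. Agpat2, which makes phosphatidic acid, read 10.55, 11.51 and 11.25 and then 13.19, 13.19 and 13.53 (2.20, SE 0.27, 4.61-fold, adjusted p = 0.0122). Dgat1 and Dgat2 encode the enzymes that add the last fatty acid. Dgat1 read 10.17, 10.85 and 10.51 and then 12.62, 12.41 and 12.28 (1.93, SE 0.21, 3.8-fold, adjusted p = 0.00849), while its second probe set lay under the filter. Dgat2 read 8.78, 8.71 and 9.03 and then 10.95, 10.31 and 10.49 (1.74, SE 0.20, 3.34-fold, adjusted p = 0.0103), with the call lost without BALB wild-type mouse 1 or 3. A second Dgat2 probe set differed less, with means of 9.94 in wild type and 11.02 in Clcn1-null mice. Fasn read 9.88, 11.79 and 10.34 in wild type and 12.99, 12.48 and 13.55 in Clcn1-null mice. Its groups did not overlap, but the wild-type mice differed widely (2.33, SE 0.54, adjusted p = 0.0657). Pck1 read 9.56, 9.82 and 10.09 and then 12.08, 12.47 and 10.55 (1.88, SE 0.50, adjusted p = 0.0965), and its dimmer probe set that passed the filter changed by -0.27. Acly (1.29), Elovl6 (1.43) and Scd1 (0.32) were not called.

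In Clcn1-null muscle the changes of Ucp1 (given above), Me1 and Gpam were below 0. Me1 read 14.08, 14.12 and 13.93 in wild type and 13.17, 12.95 and 13.79 in Clcn1-null mice (-0.74, SE 0.23, adjusted p = 0.132). A second Me1 probe set was called lower when every probe set was tested (-0.96, SE 0.19, adjusted p = 0.0495). Gpam, which attaches the first fatty acid to glycerol phosphate, read 14.23, 13.65 and 14.15 and then 13.54, 13.46 and 13.19 (-0.61, SE 0.19, adjusted p = 0.142). At their brightest probe sets none of these 3 genes passed the test. For Car3 the brightest probe set changed by 0.31 (adjusted p = 0.166), and 2 other probe sets were higher (2.27, adjusted p = 0.0165, and 1.32, adjusted p = 0.033).

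Other fat cell markers were higher in 7 of 17 in Clcn1-null mice, led by the plasma haptoglobin gene Hp (3.90), Cyp2e1 (2.57), Adig (2.44) and Slc36a2 (2.31), with 0 lower. Their mean was 10.60 to 11.00 in Clcn1-null mice and 9.70 to 9.84 in wild type. Slow fibre markers were lower in 7 of 9, with means of 10.84 to 12.11 against 13.55 to 13.88. Genes listed as brown fat markers had means of 10.11 to 10.22 against 9.48 to 9.74, and endothelial and mural markers of 10.60 to 11.09 against 10.51 to 10.78. No single gene was called in either list. Macrophage and leukocyte markers had means of 10.24 to 10.44 against 9.34 to 9.96, and 1 of 8 was higher (Cd68). Of the Schwann cell markers 1 of 4 was higher (Pmp22), with means of 11.40 to 11.81 against 11.02 to 11.46. Of 14 other genes of fatty acid synthesis, 3 were higher: Mid1ip1 (1.84), Acacb (1.00) and Acss2 (0.97). Of 11 other droplet and lipolysis genes, 3 were higher: Bscl2, which encodes the droplet protein seipin (1.67), Mgll (1.22) and Plin3 (1.05). The part of these cell type markers in the changes of the listed genes was not tested.

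**Figure D4:**
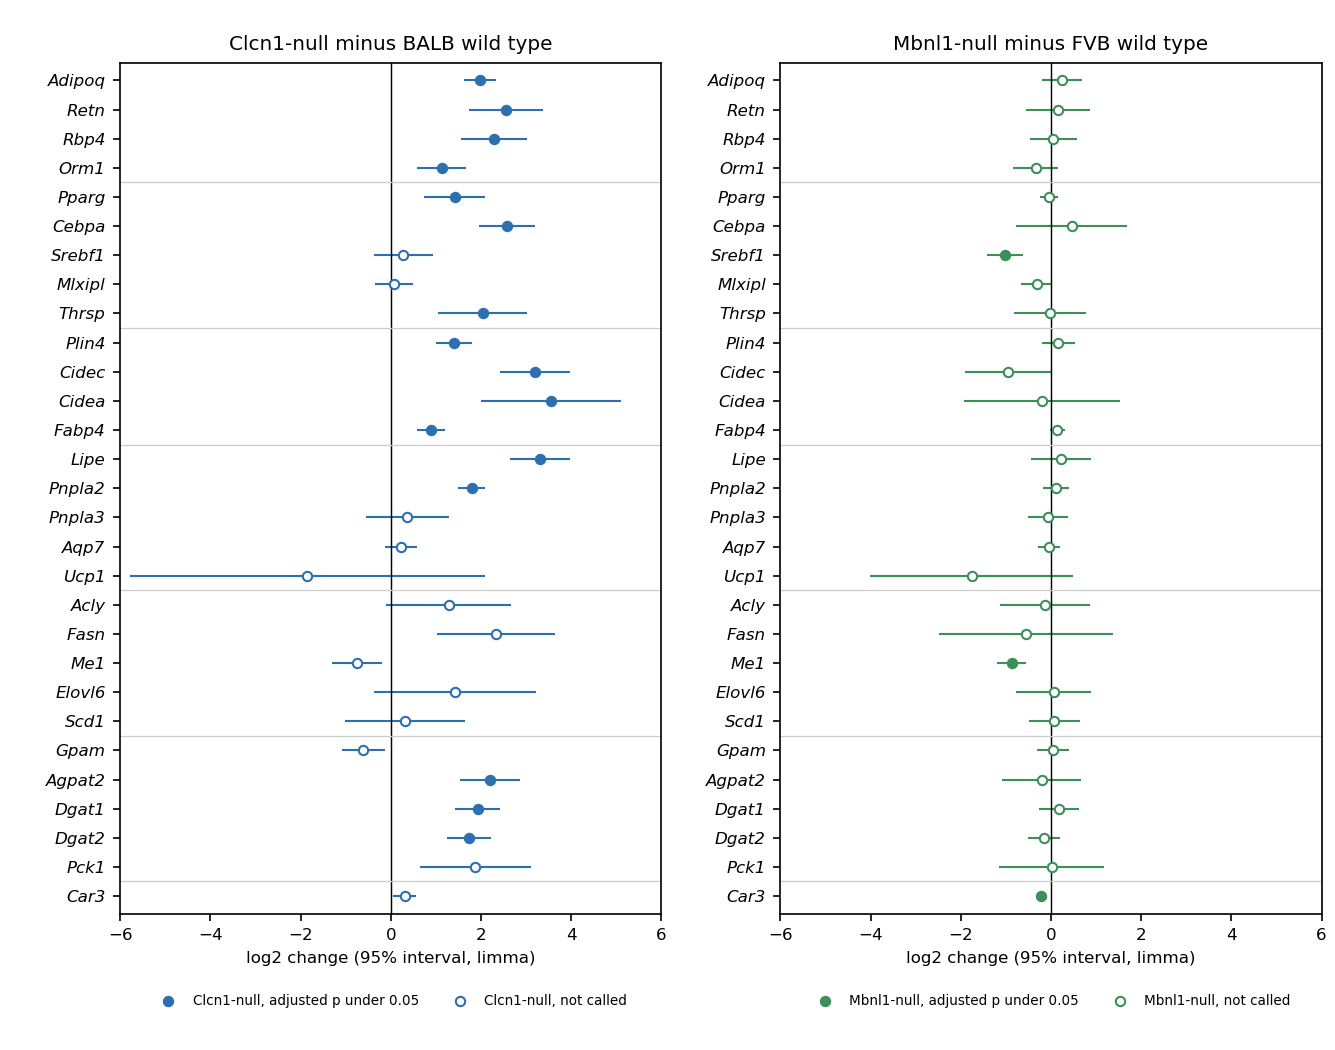
Log2 change of each of the 29 genes with its 95% confidence interval, in Clcn1-null mice against BALB wild type and in Mbnl1-null mice against FVB wild type. Filled points have an adjusted p under 0.05. In Clcn1-null mice 16 genes are higher, from Fabp4 at 0.89 to Cidea at 3.55, and in Mbnl1-null mice Srebf1 (-1.02), Me1 (-0.87) and Car3 (-0.21) are lower.

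Mbnl1-null against wild type asks what the loss of this splicing regulator goes with. Most listed genes did not pass the test here, and 3 were lower: the factor Srebf1, malic enzyme Me1 and, by little, Car3. Of the 29 genes 3 were lower and 0 higher, where 8.19% of all 8965 genes tested were lower and 8.12% higher. At 10.3%, the share of lower genes was close to that background. The median change was -0.04, against -0.01 over all genes, and 16 of 29 changes were below 0. In these 3 genes the groups did not overlap, which held for 7.91% of all genes. Srebf1 read 10.22, 9.75, 9.46, 9.92 and 9.97 in the 5 wild-type mice and 9.20, 9.00, 8.80, 8.95 and 8.26 in the 5 Mbnl1-null mice. Every Mbnl1-null mouse was lower (-1.02, SE 0.18, 2.03-fold lower, adjusted p = 0.00338). Me1 read 11.74, 11.20, 11.21, 11.10 and 11.15 in wild type and 10.74, 10.48, 10.54, 10.17 and 10.13 in Mbnl1-null mice (-0.87, SE 0.15, 1.83-fold lower, adjusted p = 0.00256). A second Me1 probe set changed by -0.76 (adjusted p = 0.00324). Both genes were called under each of the 19 alternatives.

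Car3 read 14.98, 14.81, 14.92, 14.84 and 14.89 in wild type and 14.79, 14.56, 14.72, 14.67 and 14.64 in Mbnl1-null mice. The change was small (-0.21, SE 0.06, 1.16-fold lower, adjusted p = 0.0236). Its call was lost under 7 of 19 alternatives, among them a median shift and the removal of Mbnl1-null mouse 4 (adjusted p = 0.0518) or of wild-type mouse 1 (adjusted p = 0.0559) or 3 (adjusted p = 0.0581). Adipoq read 10.46, 10.71, 10.55, 11.03 and 10.02 in wild type and 11.07, 10.75, 10.66, 11.24 and 10.31 in Mbnl1-null mice, with wide overlap (0.25, adjusted p = 0.437). Cidec (-0.95, adjusted p = 0.164) and Pparg (-0.05, adjusted p = 0.796) were not called. Ucp1 read 7.90, 7.18, 3.58, 7.36 and 3.64 in wild type and 2.85, 6.58, 3.00, 5.31 and 3.11 in Mbnl1-null mice, so mice of both groups lay on either side of the floor of 5 (-1.76, adjusted p = 0.272). Mbnl1-null mouse 5 was lowest of its group in 15 of the 29 genes, as it was in 48.6% of all genes.

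Fat cell markers outside the list were lower in 1 of 8 in Mbnl1-null mice, Lpl (-0.34), and their mean was 8.42 to 9.04 against 8.36 to 8.78 in wild type. Slow fibre markers were lower in 7 of 9, with means of 8.17 to 11.29 against 12.31 to 12.75. Macrophage and leukocyte markers were higher in 2 of 8, with a median change of 0.48. Fibroblast and tendon markers were higher in 2 of 10 and endothelial and mural markers in 1 of 15, with 0 lower in these lists. The part of all these markers in the changes of Srebf1, Me1 and Car3 was not tested. Other pathway genes moved in both directions. Acsl3 was the 1 of 13 synthesis genes called (-1.33). Of 5 glycerolipid genes, Lpin1 (-1.06) and Gpd1 (-0.70) were lower and Agpat3 (0.43) higher. Of 9 droplet and lipolysis genes, the lipase inhibitor gene G0s2 (-1.60) and Plin5 (-1.48) were lower. Of 12 regulators, Klf5 (1.30) and Cebpd (1.12) were higher.

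Side by side, 8 genes were lower in line 20b and higher in Clcn1-null mice: Adipoq, Cebpa, Cidec, Fabp4, Lipe, Plin4, Rbp4 and Retn. Of the 12030 genes tested in both experiments, 0.291% were called in this way. Of the 8, only Cidec was still called lower in line 20b without wild-type mice 1 and 2. Me1 and Srebf1 were lower in both line 20b and Mbnl1-null mice, at -0.86 and -0.65 in the former and -0.87 and -1.02 in the latter. The share of all genes lower in both was not computed, so this count has no background to be set against. Me1 changed by -0.29 in line 41 and by -0.74 in Clcn1-null mice, and Srebf1 by -0.18 and 0.28, and none of these passed the test. The experiments differ in age, strain and array, and no test was made of a difference between their changes.

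**Figure D5:**
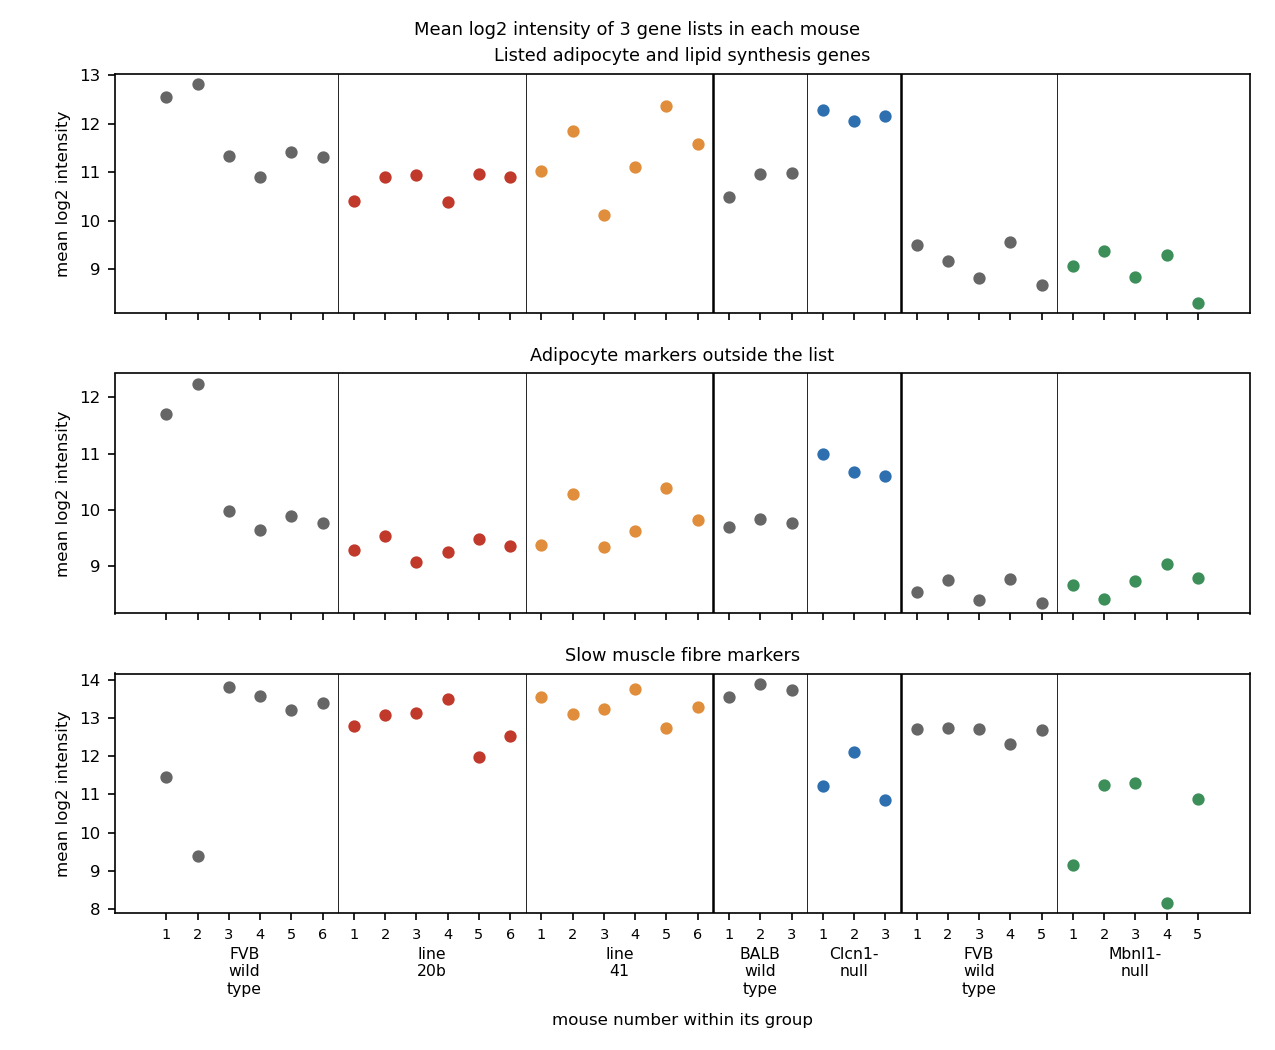
Mean log2 value over the 29 genes, over fat cell markers outside the list and over slow muscle fibre markers, as a dot for each mouse by group. Over the 29 genes, FVB wild-type mice 1 and 2 of experiment 1 have means of 12.55 and 12.81, above the 10.91 to 11.43 of their group. The mean is 12.05 to 12.29 in Clcn1-null mice against 10.49 to 10.99 in BALB wild type.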

How the data were processed

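Deposited intensity values on a linear scale, 1 for each probe set and array, were made by the authors with GCRMA, per the submitters' processing notes; its version is not given in the sources used here. Per the labels, Tri-Reagent served for extraction of total RNA and biotin as the label. Intensities were converted to log2, and arrays of the 430A and 430B pair were joined by mouse. Of 45037 probe sets, 34945 had 1 gene symbol in the supplied platform annotation, 932 several and 9160 none; the first kind was used, and a gene was represented by its probe set of highest mean log2 value, the experiments weighted equally. A gene was tested where the number of mice at log2 5 or above (an intensity of 32) was no smaller than the smallest group: 12955, 13244 and 8965 genes in experiments 1, 2 and 3. Experiments were fitted separately in R 4.3.3 with limma 3.58.1 (lmFit, eBayes with a trend, 1 mean per group, two-sided tests) and adjusted by Benjamini-Hochberg. The fit was tested on simulated data.

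The members, the other gene lists and the tests were chosen with earlier results of these data known, the omission of wild-type mice 1 and 2 included. Values for each mouse are given for genes called in a comparison and for those with the widest wild-type spread in experiment 1, plus a few others named after their values were seen (Fasn, Gpam and Ucp1 among them); of other lists, at most 4 called genes with the largest change. Alternatives were other normalisations, filters, probe sets, eBayes settings, a stricter threshold, omission of each mouse in turn, and the mouse number as a replicate block.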

Additional observations from a re-analysis of the deposited data

Results flagged for a closer look

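In 145 sets of a gene and a group of 4 to 10 mice, the lowest or highest mouse was tested for its distance from the others by Dixon's criterion, which marks about 1 set in 20 by chance. It marked 10 sets, 4 of them in line 20b, 4 in Mbnl1-null mice and 2 in the wild-type mice of experiment 3. In line 20b these were Aqp7 in mouse 1 (lowest, 6.65), Gpam in mouse 3 (lowest, 12.2), Plin4 in mouse 3 (lowest, 12.51) and Pnpla3 in mouse 3 (highest, 11.08). In Mbnl1-null mice they were Cebpa in mouse 5 (lowest, 5.67), Dgat1 in mouse 5 (lowest, 7.41), Elovl6 in mouse 2 (highest, 6.36) and Pnpla2 in mouse 5 (highest, 12.51). In the wild-type mice of experiment 3 they were Me1 in mouse 1 (highest, 11.74) and Mlxipl in mouse 5 (highest, 10.95). Me1 also differed between the effects of line 20b and line 41, by a log2 difference of -0.57 in the direct comparison of the lines.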

How the results depend on the processing

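No change of a called gene was reversed under any alternative. Line 20b had 12 lower genes. An adjusted p under 0.01 gave 5, no filter 8, omission of wild-type mice 1 and 2 gave 4, and leaving out single mice gave 6 to 15. Over all genes 1389 were lower, with 738 at an adjusted p under 0.01, 1207 with no filter and 1040 without wild-type mice 1 and 2. Line 41 had 0; quantile normalisation gave 1, testing every probe set 2, and leaving out single mice 0 to 2. Line 20b against line 41 had 1; omission of wild-type mice 1 and 2 gave 4, testing every probe set 2, and leaving out single mice 1 to 2. Clcn1-null mice had 16 higher genes. An adjusted p under 0.01 gave 6, and leaving out single mice 3 to 16. Over all genes 291 were higher, with 60 at an adjusted p under 0.01 and 35 to 769 without single mice. Mbnl1-null mice had 3 lower genes, and 2 to 3 without single mice. The sample titles do not say whether the mouse numbers pair mice between groups, so the main fit has no pairing. Deviations of same-numbered mice correlated above 0.1 in 6 of 18 pairs in experiment 1 and 0 of 3 in experiment 2. In experiment 3 they did so in 4 of 5 pairs, with a highest correlation of 0.42. With the replicate block the counts were 16, 0, 1, 8 and 4 in the same order. Over all genes the block gave 1402 lower in line 20b, 735 lower in line 41 and 310 lower between the lines. It gave 77 higher in Clcn1-null mice and 952 lower in Mbnl1-null mice.

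Scaling moved the balance of calls over all genes. Line 20b had 1177 higher and 1389 lower genes, 1496 and 1163 after quantile normalisation, and 1464 and 1197 after a median shift. Line 41 had 511 and 717, then 649 and 643, and 738 and 540. Clcn1-null mice had 291 and 424, then 452 and 472, and 459 and 596. Probe sets near the floor of log2 5, such as those of Ucp1 and Lep, limit what can be said of low levels.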
